A study of Mus musculus with 13 samples.

Results

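Chemokines are small secreted proteins that draw leukocytes towards a source, and fibroblasts release many of them when they sense bacterial products. NF-kB switches on most of the inflammatory chemokine genes, and the glucocorticoid receptor (GR, encoded by Nr3c1), the receptor for glucocorticoid hormones, is best known in inflammation for holding such genes down. GR can bind DNA directly at palindromic sites or sit near other bound factors, and the zinc fingers of its DNA-binding domain are needed for direct contact. Where GR was found on chromatin around 10 chemokine genes was described here: Ccl2, Ccl5, Ccl7, Ccl20, Cxcl1, Cxcl2, Cxcl5, Cxcl10, Cxcl12 and Cx3cl1, of 21883 protein-coding genes in the gene table. The genes were chosen by name, with earlier results of these data known. Each was taken with the peaks that the authors' annotation assigned to it. All peaks within 50 kb of its start were also taken, whichever gene those were assigned to.

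The 13 libraries were GR chromatin immunoprecipitations from mouse embryonic fibroblasts of male C57BL/6 embryos at day 13.5, cultured for 7 days. Wild-type (GR wt/wt, 3 libraries), GR Zn/Zn mutant (4 libraries) and GR knockout cells (GRKO/KO, 2 libraries) had received 1 µM dexamethasone (Dex, a synthetic glucocorticoid) for 16 h and lipopolysaccharide (LPS, a bacterial cell wall component) for 3 h, at 100 ng/µl as the labels give it. Wild-type and GR Zn/Zn cells had also received Dex alone (2 libraries each), so every group had Dex and none was untreated. The labels also name the mutant allele C437G, a cysteine-to-glycine change in a zinc finger of the DNA-binding domain. Fibroblasts cultured from embryos, here without head and internal organs, are a mixed population, and nothing in the labels says whether embryos were pooled.

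For Dex+LPS the peaks came as 3 lists made from merged libraries, after removal of peaks also seen in knockout cells: 18953 found in wild-type cells alone (wild-type-specific), 3533 in both genotypes (shared) and 2187 in the mutant alone (mutant-specific). Merged lists carry no spread between samples, so counts from them are descriptions with no test. For Dex alone there was 1 list per library, with 412 and 854 peaks for wild-type cells and with 53 and 60 for mutant cells. The files hold positions without read counts or peak heights, so depth is unknown, and 4 mutant libraries were merged against 3 of the wild type. Peak positions give no expression level, so whether these cells express each chemokine could not be checked.

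Sequence at the start of Ccl20 is shown first, because Ccl20 was the member with a peak across its promoter. Ccl20 encodes a ligand that attracts CCR6-bearing T cells and dendritic cells. The shared peak at mm10 chr1:83116540-83116739 lay 127 bp upstream of the gene start (plus strand) and fell entirely within the promoter sequence of the RefSeq table (GRCm38.p6). In the sequence of this peak, capitals mark a match to the NF-kB consensus (GGGRNWYYCC) on the other strand. The match is followed 5 bases later by AGAACA, the hexamer that makes up each arm of the GR palindrome. In the consensus, R is A or G, W is A or T, Y is C or T and N is any base.

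Ccl20 shared peak: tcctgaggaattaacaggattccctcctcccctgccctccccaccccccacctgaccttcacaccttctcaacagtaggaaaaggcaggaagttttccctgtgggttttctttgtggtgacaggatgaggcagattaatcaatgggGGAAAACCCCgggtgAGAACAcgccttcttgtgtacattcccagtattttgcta

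The NF-kB match GGAAAACCCC began 80 bp before the gene start and the AGAACA hexamer 65 bp before it. No match to the full palindrome (AGAACA, any 3 bases, TGTTCT) or to the AP-1 motif TGANTCA was found in these 200 bases.

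The bases before 3 further member starts are shown because each holds the NF-kB consensus, yet no peak of any class overlapped the promoter. Cxcl1 and Cxcl2 attract neutrophils through CXCR2, and Cxcl10 attracts activated T cells through CXCR3. Capitals mark the NF-kB consensus in Cxcl1 (chr5:90890995-90891244, plus strand) and Cxcl2 (chr5:90903649-90903898, plus strand). In Cxcl10 (chr5:92348890-92349139, minus strand) they mark, from 5′ to 3′, a match to the interferon-response motif (TTTC, any 2 bases, TTTC) on the other strand, 2 matches to the NF-kB consensus and an AP-1 match.
Cxcl1: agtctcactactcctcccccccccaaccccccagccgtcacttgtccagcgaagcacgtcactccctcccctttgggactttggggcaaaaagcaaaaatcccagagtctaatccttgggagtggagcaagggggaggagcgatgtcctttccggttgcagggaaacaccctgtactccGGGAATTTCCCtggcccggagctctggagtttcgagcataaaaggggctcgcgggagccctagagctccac
Cxcl2: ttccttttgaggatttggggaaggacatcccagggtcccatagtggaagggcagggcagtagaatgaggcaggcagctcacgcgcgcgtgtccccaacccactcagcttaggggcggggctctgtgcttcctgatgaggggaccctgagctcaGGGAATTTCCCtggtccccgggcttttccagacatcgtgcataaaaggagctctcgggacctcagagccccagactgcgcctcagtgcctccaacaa
Cxcl10: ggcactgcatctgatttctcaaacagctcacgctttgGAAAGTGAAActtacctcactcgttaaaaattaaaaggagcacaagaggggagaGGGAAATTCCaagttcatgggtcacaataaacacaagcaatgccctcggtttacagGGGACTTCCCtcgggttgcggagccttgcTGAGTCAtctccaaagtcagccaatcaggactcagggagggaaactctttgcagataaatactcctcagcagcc

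The promoter table held 6 of the members (Ccl20, Cxcl1, Cxcl2, Cxcl10, Cxcl12 and Cx3cl1). The NF-kB consensus, searched on both strands, was present in 4 of them, in Ccl20, Cxcl1, Cxcl2 and Cxcl10, and in 4.51% of all 32851 promoters of the table. The looser pattern of GGG, any 5 bases and CC, which every consensus match also fits, was present in 5 of the 6, with Cxcl12 added, and in 50.8% of all promoters. AGAACA was found in Ccl20 alone of the 6 and in 19.0% of all promoters, TGANTCA in Cxcl10 alone and in 7.81%, and the interferon-response motif in Cxcl10 alone and in 3.44%. The full GR palindrome was in none of the 6 and in 3 promoters of the whole table.

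GR peaks surrounded nearly all of these chemokine genes under Dex+LPS. By the authors' assignment, 9 of the 10 had a wild-type-specific peak, against 30.6% of all protein-coding genes. A shared peak was assigned to 4 of them (9.37% of all genes) and a mutant-specific peak to 1 (5.36% of all genes). Ccl7, a monocyte attractant next to Ccl2, had no assigned peak. Counted by position, a wild-type-specific peak lay within 50 kb of 9 of the 10 starts (48.5% of all genes), a shared peak near 8 (15.0%) and a mutant-specific peak near 3 (9.58%). With a window of 20 kb the shared class reached 4 of the 10, and the share of all genes was not counted at 20 kb. Since the genes were chosen with earlier results of these data known, the contrasts with all genes are descriptions only.

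**Figure D1:**
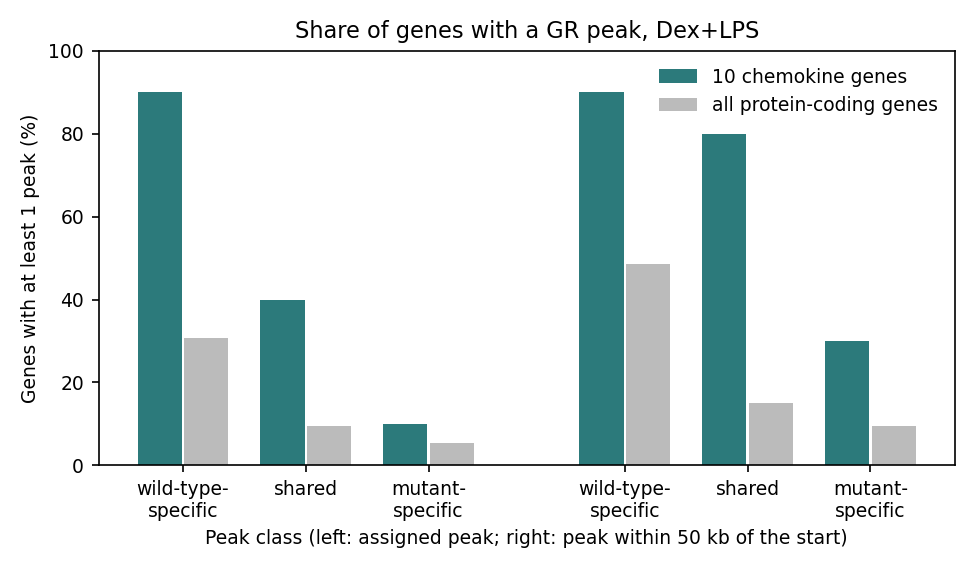
Bars give the percentage of the 10 chemokine genes and of all 21883 protein-coding genes with at least 1 Dex+LPS peak of each class, by the authors' assignment (left) and within 50 kb of the gene start (right). The chemokine bars are at 90% for wild-type-specific peaks under both rules, and for shared peaks at 40% by assignment and 80% by position.

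The ways of counting differed through neighbours and through distance. Of the 41 assigned peaks, 31 lay in the windows, and the rest, among them all 8 assigned to Cxcl12, lay beyond 50 kb. The windows held 56 peaks, of which 25 (44.6%) were assigned to a gene that is not among the 10. These genes were Art3 (9 peaks), Ccl11 (4), Ccl9 (3), Daw1 (3) and, with 1 peak each, Cxcl9, Cxcl11, Ccl22, Heatr9, Asic2 and Mthfd2l. The members form 8 separate loci, because Ccl2 and Ccl7, and Cxcl1 and Cxcl2, lie so close together that their windows share peaks. Wild-type-specific peaks were found at 7 of the 8 loci, shared peaks at 6 and mutant-specific peaks at 3. No share over all genes was counted for such loci, and the shares for single genes do not apply to joined windows.

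Most of the wild-type sites near chemokine genes were missing from the mutant list, as across the genome. In the windows, 49 peaks were wild-type peaks (36 wild-type-specific and 13 shared) and 20 were mutant peaks (13 shared and 7 mutant-specific). The mutant list thus held 26.5% of the wild-type sites (95% exact binomial interval 14.9 to 41.1%), against 15.7% outside the windows, which lies inside that interval. Of the mutant sites in the windows, 65.0% were also wild-type sites (40.8 to 84.6%), against 61.8% outside. These intervals cover counting error alone, and peaks of 1 locus are not independent.

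**Figure D2:**
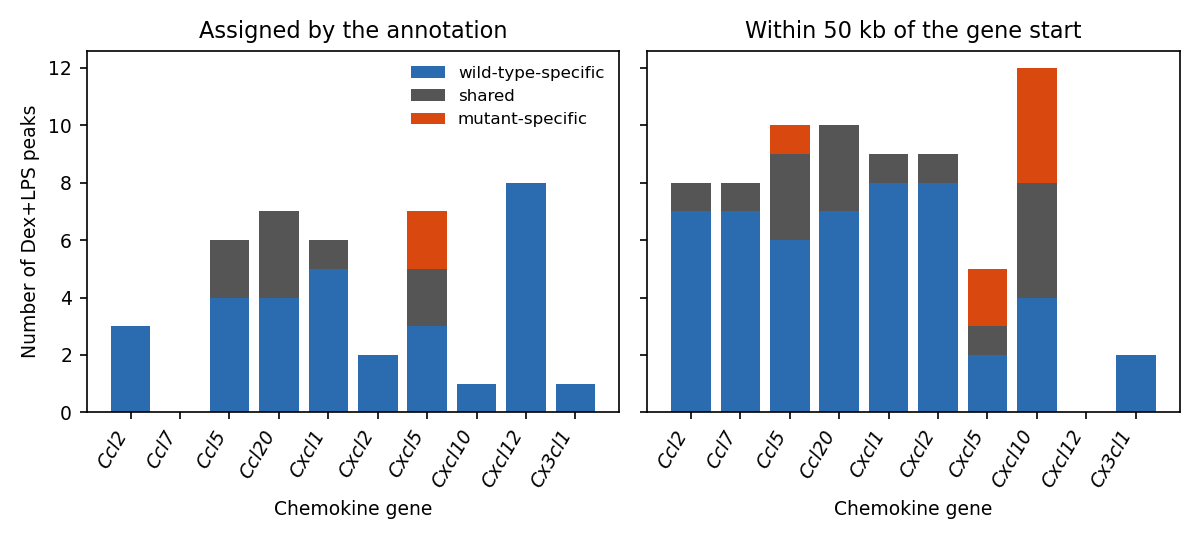
Stacked bars give the number of Dex+LPS peaks of each class per chemokine gene, as assigned by the authors (left) and within 50 kb of the gene start (right). Cxcl10 goes from 1 assigned peak to 12 within 50 kb, and Cxcl12 from 8 to 0.

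Of the 10 members, Cxcl10 had the most mutant peaks within 50 kb, and its neighbours Cxcl9 and Cxcl11 had the same counts. The gene (chromosome 5, 92346638 to 92348889, minus strand) sits inside the body of Art3, a gene of the ADP-ribosyltransferase family (92331799 to 92414628, plus strand). The annotation gave Cxcl10 a single wild-type-specific peak inside the gene, 1.14 kb from its start (92347648 to 92347847), and no mutant peak. Within 50 kb, however, there were 12 peaks, 4 of each class. At least 4 mutant-specific peaks within 50 kb of the start were found at 0.946% of all genes, and at least 4 shared peaks at 0.507%. The limit of 4 is the count of Cxcl10 itself, which was taken up as the member with the most peaks of the 10. These shares are therefore descriptions and no measure of how unusual Cxcl10 is.

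On the upstream side of Cxcl10, a shared peak lay 4.9 kb upstream (92353694 to 92353893), and mutant-specific peaks followed at 10.4 and 11.8 kb, the second of them inside Cxcl11, which the gene table lists as a transcribed pseudogene in this strain. A denser group lay from 19.6 to 28.3 kb upstream, with 2 shared, 2 wild-type-specific and 2 mutant-specific peaks. Here both genotypes had peaks side by side: the mutant-specific peak at 92376215 to 92376414 was separated by 628 bp from the nearest wild-type site, and the one at 92370410 to 92370609 by 1075 bp. Downstream there was a shared peak at 16.3 kb, inside Art3, and a wild-type-specific peak at 25.3 kb inside Cxcl9, the third CXCR3 ligand of the cluster. Mutant-specific peaks of this locus were 4 of the 7 found near all the chemokine genes.

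Genes elsewhere with the most similar counts were sought among those over 1 Mb from any member, by distance in log2(number + 1) over the 3 classes within 50 kb of the start. Rnf19b on chromosome 4 had the same 4, 4 and 4 peaks. H2bc14 (4, 4 and 3) and H4c11 (4, 5 and 3) on chromosome 13 came next, at distances of 0.322 and 0.416. Counts in 3 classes are a coarse measure of likeness, and those histone genes are neighbours with overlapping windows.

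Among the neutrophil attractants, 3 mutant peaks (shared or mutant-specific) lay within 50 kb of the Cxcl5 start and 1 near Cxcl1 and Cxcl2. At least 1 mutant peak that near was found at 20.3% of all genes. A further shared peak lay 58.6 kb upstream of Cxcl1, outside its window. All 3 genes are on chromosome 5, with Cxcl15 among the genes between Cxcl5 and Cxcl1. The ligand genes Ppbp and Pf4 had the same counts as Cxcl5 in each class, so these counts are not particular to Cxcl5. Cxcl5 (90759298 to 90761625) was the 1 member to which mutant-specific peaks were assigned. They lay 27.9 kb upstream (90731310 to 90731509) and 4.78 kb downstream of the start (90763981 to 90764180), 19.1 kb and 4.09 kb from the nearest wild-type site. A shared peak lay 5.29 kb upstream of Cxcl5 (90753908 to 90754107). Wild-type-specific peaks lay 8.58 kb upstream and, inside the gene, 488 bp after the start (90759686 to 90759885). A further wild-type-specific and a further shared peak were assigned to Cxcl5 from 58.9 and 56.2 kb upstream.

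Cxcl1 (90891245 to 90893121) had 5 wild-type-specific peaks and 1 shared peak assigned to it, and Cxcl2 (90903899 to 90905938) had 2 wild-type-specific peaks. Within 50 kb of either start there were the same 9 peaks, 8 of them wild-type-specific and 1 shared. By the same limit of 4 as used for Cxcl10, 5.88% of all genes had at least 4 wild-type-specific peaks within 50 kb of the start. Among them were 7 of the 10 chemokine genes. These 7 genes are not separate counts: Cxcl1 and Cxcl2 hold the same 8 wild-type-specific peaks, and Ccl2 and Ccl7 the same 7. Of the Cxcl1 peaks, 2 lay 9.4 and 10.5 kb upstream (90881749 to 90881948 and 90880673 to 90880872). Between the 2 genes there were 3 more, at 6.38, 7.55 and 9.19 kb after the start of Cxcl1, and the last of these was 3.46 kb upstream of Cxcl2 (90900335 to 90900534). The shared peak (90855802 to 90856001) was the farthest upstream in these windows, 35.3 kb from the start of Cxcl1 and 48.0 kb from that of Cxcl2. On the other side, a wild-type-specific peak assigned to Mthfd2l (90930557 to 90930756) lay 39.4 kb downstream of the Cxcl1 start. The peaks between the 2 genes were 41.5 to 44.3 kb from the nearest mutant site.

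**Figure D3:**
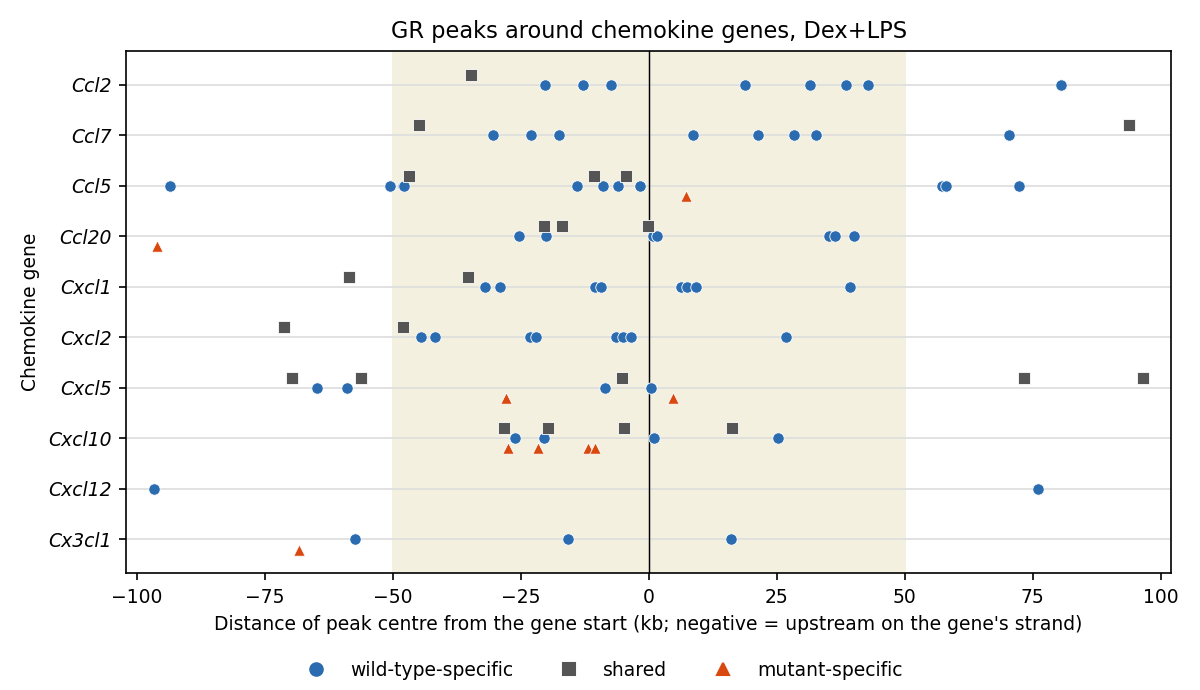
Each symbol is a Dex+LPS peak placed by the distance of its centre from the gene start in kb (negative is upstream on the gene's strand, with Ccl7 taken as plus strand), with 1 row per chemokine gene, classes told apart by colour, shape and a small vertical offset, and the 50 kb windows shaded. Mutant-specific peaks lie within the shaded windows of Cxcl10, Cxcl5 and Ccl5, and the Cxcl12 window is empty.

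The monocyte attractants Ccl2 and Ccl7 showed a similar picture to Cxcl1 and Cxcl2. Ccl2 (chromosome 11, 82035577 to 82037452), the main ligand of CCR2, had 3 wild-type-specific peaks assigned, 7.31, 12.9 and 20.3 kb upstream. The nearest of them was at 82028172 to 82028371. Ccl7 (82045712 to 82047525) had none assigned, but the same 7 wild-type-specific peaks and 1 shared peak lay within 50 kb of both starts. The peak nearest to Ccl7 lay 8.72 kb from its start (82054332 to 82054531) and was assigned to Ccl11, as were 3 more beyond it; Ccl11 encodes eotaxin, an eosinophil attractant. The single mutant site of this locus was the shared peak 34.8 kb upstream of Ccl2 (82000695 to 82000894), assigned to Asic2. From the 7 wild-type-specific peaks, the nearest mutant site was between 14.2 and 66.2 kb away.

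Ccl5 (chromosome 11, 83525778 to 83530518, minus strand), which attracts T cells and monocytes, had a compact series of 6 peaks upstream. Their distances from the start were 1.67, 4.39, 5.97, 8.94, 10.6 and 13.9 kb, and those at 4.39 kb (83534814 to 83535013) and 10.6 kb (83541067 to 83541266) were shared, the others wild-type-specific. The 4 wild-type-specific peaks of the series were 1.38 to 3.05 kb from the nearest mutant site, much nearer than those at Ccl2. A mutant-specific peak lay on the other side of Ccl5, 7.23 kb downstream of its start, and was assigned to Heatr9 (83523186 to 83523385). From 46.7 to 48.0 kb upstream, near the edge of the window, Ccl9 had a shared peak and a pair of wild-type-specific peaks, one of which overlapped the Ccl9 start.

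Ccl20 (chromosome 1, 83116766 to 83119167) had 4 wild-type-specific and 3 shared peaks assigned and no mutant-specific peak. Besides the promoter peak whose sequence is given above, shared peaks lay 16.8 and 20.5 kb upstream. A wild-type-specific peak (83096524 to 83096723) stood 181 bp from the farther of them. Inside the gene there were 2 wild-type-specific peaks, 920 bp and 1.62 kb after the start. Of the 10 genes, 1 (Ccl20) had a shared peak within 1 kb of its start, against 2.28% of all genes, and 2 (Ccl20 and Cxcl5) had a wild-type-specific one, against 7.92%. No member had a mutant-specific peak that close (1.46% of all genes). Another 3 wild-type-specific peaks, assigned to Daw1, lay 35.2 to 40.1 kb downstream.

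The remaining genes encode a homeostatic and a membrane-anchored chemokine. No mutant peak lay within 50 kb of either, and only 20.3% of all genes had one, so absence is the common state. Cxcl12 (chromosome 6, 117168535 to 117181368), the CXCR4 ligand that retains stem cells and lymphocytes in their niches, had 8 wild-type-specific peaks assigned, all of them distant. The nearest was 76.1 kb downstream of its start (117244525 to 117244724), and the others lay between 96.5 and 209 kb away. Cx3cl1 (chromosome 8, 94772180 to 94782427), also called fractalkine, had 1 wild-type-specific peak assigned, 16.1 kb downstream of the start (94788205 to 94788404). A second, assigned to Ccl22, lay 15.7 kb upstream.

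Peaks assigned to the chemokine genes were mostly upstream of the gene. Of the 41 assigned peaks, 30 (73.2%) were upstream, 4 (9.76%) inside and 7 (17.1%) downstream. Of all 24673 Dex+LPS peaks, 26.5% were upstream, 47.0% inside and 23.9% downstream of their assigned gene. All 8 shared peaks were upstream, as were 21 of 31 wild-type-specific peaks. The chemokine genes are short, from 1814 to 12834 bp, and the part of gene length in this difference was not tested.

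Some wild-type-specific peaks near the chemokine genes lay close to a mutant site, and most did not. Of the 36 in the windows, 9 (25.0%) were under 2 kb from a shared or mutant-specific peak, against 6.75% of all wild-type-specific peaks. The median gap was 11.5 kb, against 107 kb for all. Windows of the members also held more Dex+LPS peaks, with a mean of 7.3 against 1.37 for all genes. The part of this density in the shorter gaps was not tested. For the 7 mutant-specific peaks the median gap to a wild-type site was 5.28 kb, and for all mutant-specific peaks it was 7.54 kb. All 9 near pairs were at Ccl20, Ccl5 with Ccl9, and Cxcl10.

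Dex alone gave no peak at any of the 10 genes. None of the 4 libraries had a peak assigned to a member or within 50 kb of a start, so the count was 0 throughout (two-sided exact permutation test on 2 wild-type and 2 mutant libraries, p = 1, where 0.33 is the smallest p that 4 libraries allow). With 0 in every library this p was fixed in advance, so the test could not compare the genotypes. By assignment, 1.09% and 1.86% of all genes had a peak in the wild-type libraries and 0.142% and 0.183% in the mutant libraries. A peak within 50 kb of the start was found at 0.900% and 1.45% of all genes in the wild-type libraries and at 0.133% and 0.178% in the mutant libraries, so 0 of 10 genes is near the background. The nearest Dex peak to any member was 2.39 Mb from Cxcl10, in wild-type library 2. On chromosome 11, which holds Ccl2, Ccl5 and Ccl7, there were 56 and 103 wild-type peaks and 4 and 3 mutant peaks by library, and none of these was nearer than 3.07 Mb to a member. The Dex and Dex+LPS lists differ in number of libraries and in how peaks were called, so the absence under Dex alone cannot be told apart from those differences. No label states separate cultures for these libraries, and any spread between them could be technical.

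Other chemokine ligand genes were read against the same background. Of 28 further ligands, wild-type-specific peaks were assigned to 11 (30.6% of all genes), shared peaks to 3 (9.37%) and mutant-specific peaks to 3 (5.36%). Cxcl16, which encodes a membrane-bound ligand of CXCR6, had a mutant-specific peak inside the gene, 598 bp from the start (chromosome 11, 70459287 to 70459486), and no wild-type peak. Ccl4, an attractant of monocytes and T cells, had a mutant-specific peak inside the gene, 1.1 kb from its start (83663586 to 83663785), and a wild-type-specific peak 3.18 kb after it. Xcl1, the lymphotactin gene, had 4 wild-type-specific peaks between 40.4 and 58.7 kb upstream. By position, 23 of the 28 had a peak of some class within 50 kb (53.6% of all genes) and 19 a mutant peak (shared or mutant-specific; 20.3% of all genes), but many share their windows with a member. Of the 15 ligands over 100 kb from every member, 10 had a peak and 8 a mutant peak within 50 kb. These are not all separate counts either. Ccl3 and Ccl4 on chromosome 11 had the same numbers of each class within 50 kb, as had Ccl24 and Ccl26 on chromosome 5.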

How the data were processed

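GR ChIP-seq peak lists were used as deposited. Tools listed in the submitters' processing notes are MACS2 2.1.0, Picard 1.119 and BWA 0.7.13, with build mm10 and no step for any. The file names say that Dex+LPS libraries of a genotype were merged and knockout peaks removed, and the 4 Dex lists have a false discovery rate threshold. The deposited values are positions and distances in bp. Dex+LPS peaks are all 200 bp wide and Dex peaks 202 to 3852 bp. Details of merging, control and annotation are not stated in the labels or files.

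Peaks were taken by assigned symbol and by overlap (at least 1 bp) with windows of 50 kb on each side of gene starts. Background shares are over 21883 protein-coding genes of a GRCm38 gene table, of which 2817 (Ccl7 among them) had no strand in the tables and were placed by their lower end. Window counts on simulated peaks were the same as those of bedtools 2.31.1 for 500 of 500 windows. Distances are from peak centre to gene start, in 1-based mm10 coordinates. Shares have exact (Clopper-Pearson) 95% intervals. Wild-type and mutant Dex libraries were set against each other in an exact permutation test. Motifs were searched in RefSeq promoter sequences (GRCm38.p6), since no genome was used here. Alternatives were windows of 20 and 100 kb, the gene body with 50 kb, peak centres, the nearest gene start, and leaving out Cxcl10 or a Dex library. All members were named, with every gene assigned a peak in their windows. The members and lists were chosen with earlier results of these data known. Scripts ran in Python 3.11.15 with matplotlib 3.10.9, scipy 1.17.1, pandas 2.3.3 and numpy 2.4.6.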

Additional observations from a re-analysis of the deposited data

How the results depend on the processing

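The window size changed the peak totals, most of all with 20 kb, while 9 members kept a wild-type-specific peak at that size. With 20 kb, 19 wild-type-specific peaks, 8 shared ones and 4 mutant-specific ones remained in the windows, and 4 members had a shared peak. With 100 kb, a mutant-specific peak lay near 5 members in place of 3, with Ccl20 and Cx3cl1 added. Shares of all genes were not counted at 20 or 100 kb, so these numbers cannot be set against the 50 kb shares. Without Cxcl10 the windows held 3 mutant-specific peaks in place of 7. Taking the gene with the nearest start in place of the authors' assignment gave 2 members with a mutant-specific peak in place of 1. Of the wild-type sites, the mutant list held between 22.0 and 29.6% in each alternative run. Counting by peak centre, by gene body with 50 kb or with the start of Ccl7 at its upper end (chosen after seeing the data) moved none of the Dex+LPS counts. The Dex count remained 0 in every alternative, including leaving out each library (range 0 to 0). With the replicate number as a block the exact permutation p was 1, which counts of 0 fix in advance. No numbers pair the libraries by the labels, and with all counts at 0 pairing could not be checked. Leaving out a Dex+LPS library was not possible in merged lists, and motifs in peaks widened by 100 bp were not searched, as no genome was used here. Unknown depth and the missing peak heights limit every absence of a peak given here.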

Other observations

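Chemokine receptor genes act mainly in leukocytes. Of 22 such genes, 6 had a wild-type-specific peak assigned, 1 a shared and 0 a mutant-specific peak, where 30.6%, 9.37% and 5.36% of all genes had one. Within 50 kb of the start, 14 of the 22 had a peak of some class and 5 a mutant peak, against 53.6% and 20.3% of all genes. Several of these genes are neighbours on chromosome 9 and share peaks. Ackr3, a scavenger receptor that takes up Cxcl12, was the gene with a shared peak. It had 2 wild-type-specific peaks, 22.0 and 57.2 kb downstream of its start, and 2 shared peaks, 30.8 kb (chromosome 1, 90234721 to 90234920) and 131 kb downstream. Ccr1, a receptor for Ccl5, had a wild-type-specific peak overlapping its start (chromosome 9, 123968643 to 123968842). No receptor or further ligand gene had a Dex peak assigned or within 50 kb of its start. By library, 0.142 to 1.86% of all genes had a Dex peak assigned and 0.133 to 1.45% had one within 50 kb, so this absence is near the background.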
